A study of Mus musculus with 9 samples.

Results

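The cells described here were 1693 Ccr7-positive antigen-presenting cells, 5.33% of the 31759 cells kept from 9 single-cell RNA libraries of CD11b+ cells sorted from the gut lamina propria of mice. They were proposed as mature migratory dendritic cells. A kept cell (mitochondrial UMIs at most 15% of its total, at least 200 genes) was a member when it held at least 2 UMIs of Ccr7, at least 1 UMI of any of Fscn1, Ccl22 and Il4i1, at least 20 UMIs of Cd74, and no UMI of Top2a, Cd79a or Cd3e. A UMI (unique molecular identifier) marks 1 captured RNA molecule. The cells were thus chosen by their own UMI counts of these 8 genes, so the levels of those genes are a description only, as is every comparison of the members with other cells.

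All mice were C57BL/6 males of 7 to 8 weeks and wildtype unless named otherwise. The libraries were 2 from the colon of germ-free (GF) mice, 1 from the colon of mice given antibiotics in drinking water (ampicillin, neomycin and metronidazole at 1 g/L each and vancomycin at 0.5 g/L), 1 from Nlrc4 deficient mice given dextran sulfate sodium (DSS, 2.5% wt/vol for 7 days) and 1 from specific-pathogen-free (SPF) mice given the same DSS. There were also 2 from the small intestine of normal mice and 2 from the colon of SPF mice. Each library came from cells pooled over several mice, so a group of 2 libraries has n = 2, and the antibiotics and both DSS conditions have n = 1 and carry no test. The question behind these comparisons was how microbial status, gut region, inflammation and Nlrc4 deficiency alter gut mononuclear phagocytes.

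Dendritic cells sample antigen in the gut wall and, on maturation, express the chemokine receptor CCR7, which guides them along lymphatics to the draining lymph nodes. Mature migratory dendritic cells lose phagocytic activity, remodel their cytoskeleton through the actin-bundling protein fascin (Fscn1), secrete the chemokines CCL17 and CCL22 and carry high levels of costimulatory molecules. In the intestine they carry luminal antigen to lymph nodes, where they can drive tolerance or effector responses.

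The libraries held 13243317 to 64453601 UMIs over all deposited barcodes, and the members 10280 to 15361 UMIs and 2524 to 3131 genes per cell (medians by library). No barcode was shared between members of different libraries. SPF colon 2, labelled male, held 26 kept cells with at least 3 UMIs of the female-specific RNA Xist and none of Y-linked genes, 4 of them members, and the antibiotics library held 3 such cells, none of them members. Without members holding a Xist UMI the tests below made 2 and 76 calls in place of 2 and 69, and without SPF colon 2 they made 2 and 35. Nlrc4, which encodes an inflammasome sensor, measured 19.9 CPM over the kept cells of the library labelled Nlrc4 deficient, against 10.8 CPM in the DSS library and 2.42 to 16.5 CPM in the others. The deleted part of the gene is not given in the sources used here, so a 3′ tag neither supports nor contradicts that label. A doublet caller marked under 0.5% of the cells in 8 of 9 libraries and so did not work. In its place, the cells with the highest doublet scores, 70 of them members, were removed as an alternative.

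The label was checked on 12 genes that the rule did not use. Their summed level was 3429 to 7417 CPM (UMIs of a gene in the summed cells of a library, scaled to the usual fixed total) in the members, against 1200 to 1893 CPM in Xcr1/Clec9a dendritic cells and 1149 to 2769 CPM in Cd209a/Clec10a dendritic cells of the same libraries. In macrophages marked by C1qa that sum was 1736.5 to 3900 CPM, which overlaps the members. Of these 12, Tbc1d4 and Ccl5 were at least 2-fold higher than in both dendritic cell classes in every library. Both genes of the dendritic lineage on that list separated the members from macrophages. Flt3, a growth factor receptor, ran at 87.4 to 217 CPM in the members, with a median of 6.35 CPM in macrophages marked by C1qa. Zbtb46, a transcription factor of conventional dendritic cells, ran at 49.9 to 103 CPM, with a macrophage median of 0.72 CPM. T cell markers summed to 3.44 to 16.8 CPM. The macrophage markers summed to 183 to 1258 CPM in the members and 6016 to 10863 CPM in the C1q class, and their part in the results below was not tested except where a value is given. The whole set is called Ccr7 cells here, because its make-up was mixed.

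The share of Ccr7 cells differed as much between replicate libraries as between conditions. They made up 3.31% of kept cells in GF colon 1 (exact binomial 95% interval 2.45 to 4.37) and 10.3% in GF colon 2 (9.17 to 11.4), against 2.75% in SPF colon 1 (2.16 to 3.45) and 8.93% in SPF colon 2 (7.82 to 10.1). The second library was higher in both groups, so the groups overlapped. In the small intestine the shares were 2.60% (2.11 to 3.17) and 5.25% (4.67 to 5.87), the first below both SPF colon shares and the second between them. The share was 4.93% (4.11 to 5.87) with antibiotics, 7.06% (6.46 to 7.70) in the library labelled Nlrc4 deficient with DSS and 2.14% (1.72 to 2.62) with DSS alone. Group means were 6.79% ± 4.91 for GF colon, 3.92% ± 1.87 for small intestine and 5.84% ± 4.36 for SPF colon (SD, n = 2 each), and an exact permutation test of 2 against 2 libraries cannot reach p = 0.05. These intervals cover counting error only. Among cells passing the Cd74 and exclusion criteria, Ccr7 cells were 16.1% and 51.0% in GF colon, 29.3% with antibiotics, 18.5% in the library labelled Nlrc4 deficient with DSS, 9.58% with DSS, 11.9% and 15.1% in the small intestine and 8.97% and 36.5% in SPF colon. Shares were also taken in cells thinned to 3000 UMIs, with cells under 3000 UMIs left out. There the rule asked for at least 1 Ccr7 and 10 Cd74 UMIs and was otherwise unchanged. That share was 4.87% and 10.8% in GF colon, 7.43% with antibiotics, 4.84% and 2.69% in those DSS libraries, 2.02% and 4.87% in small intestine, and 2.95% and 8.45% in SPF colon. It is not a share of all kept cells: with antibiotics 1088 of 2433 were left out. Before thinning, the antibiotics cells that remained gave 8.85% under the full rule.

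**Figure D1:**
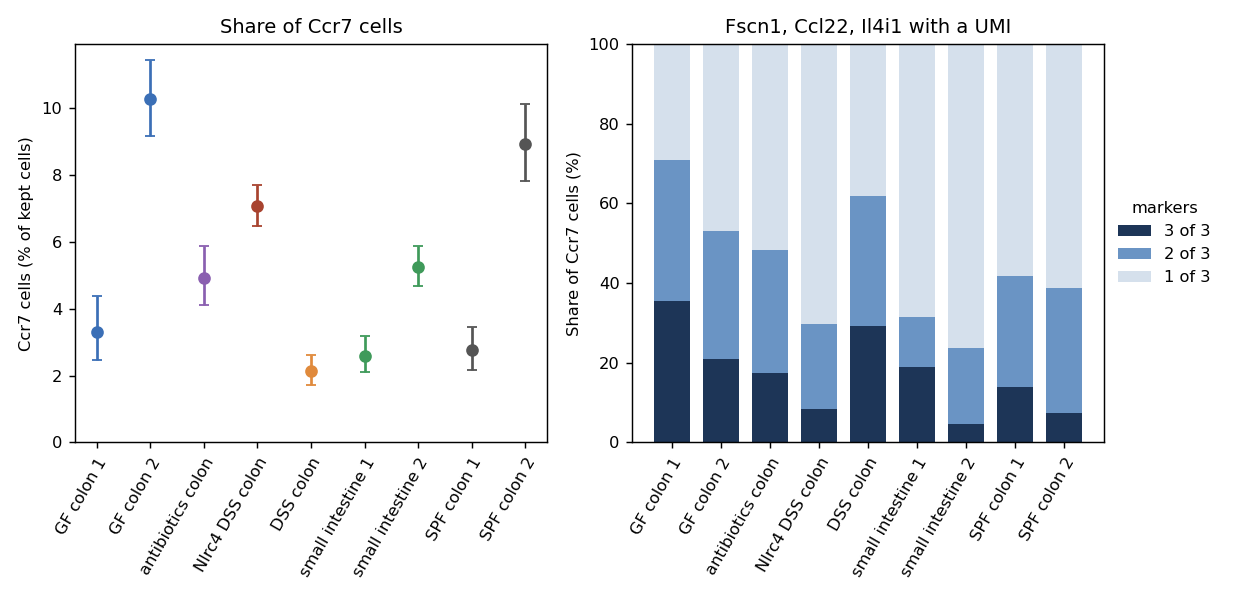
Left, Ccr7 cells as a percentage of kept cells in each of 9 libraries, with exact binomial 95% intervals as bars. Right, the percentage of Ccr7 cells with a UMI of 3, 2 or 1 of the markers Fscn1, Ccl22 and Il4i1. Shares ran between 2.14% and 10.3%, and cells with all 3 markers between 4.53% and 35.4%.

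Most Ccr7 cells met the rule through a single marker. Of 1693 cells, 1039 (61.4%) held a UMI of 1 of the 3 markers, 432 (25.5%) of 2 and 222 (13.1%) of all 3. Ccl22, which encodes a ligand of CCR4, was present in 1220 cells (72.1%), Il4i1, an amino acid oxidase that restrains T cells, in 947 (55.9%) and Fscn1 in 402 (23.7%). Median depth was alike at 12763 UMIs with 2 markers, 12520.5 with 3 and 12269 with 1. Cells with all 3 markers were 35.4% and 20.9% of Ccr7 cells in GF colon, 17.5% with antibiotics, 8.46% in the library labelled Nlrc4 deficient with DSS, 29.2% with DSS, 18.9% and 4.53% in small intestine and 13.9% and 7.37% in SPF colon. Few cells were close to the Ccr7 threshold, since 135 members held 2 or 3 Ccr7 UMIs and 156 cells that met the rest of the rule held 1 and stayed outside. For the other markers, most members (1039 of 1693) were at the minimum of 1 marker. Summed Ccr7 levels were 1784 to 3445 CPM.

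The 3-marker cells and the 1-marker cells differed in genes that the rule did not use. The split was made on markers of the rule, so it is a description and no support for the label. Both sets were compared as summed CPM within each library, as medians over the 9 libraries. Apol7c, an apolipoprotein L family gene, had a median of 1551 CPM in 3-marker cells against 53.6 CPM in 1-marker cells. Socs2, a suppressor of cytokine signalling, had 343 against 6.86 CPM, and Fabp5, a fatty acid-binding protein, 1271 against 54.6 CPM. These genes were higher in 9 of 9 libraries, as were the next 6. Cd63, a tetraspanin of late endosomes, had 802 against 88.8 CPM, and Cd200, a ligand that dampens myeloid cells, 224 against 13.5 CPM. Ccl17, the other CCR4 ligand, had 442 against 64.7 CPM and Aldh1a2, which makes retinoic acid, 48.6 against 4.11 CPM. Relb, a subunit of the noncanonical NF-kB pathway, had 377 against 125 CPM, and Ccl5, a chemokine for T cells, 1214 against 297 CPM. Il12b, which encodes a subunit of the cytokine IL-12, had 343 against 57.7 CPM and was higher in 8 of 9 libraries.

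In the other direction, the lectin Cd209a had a median of 35.0 CPM in 3-marker cells against 340 CPM in 1-marker cells, and Clec10a, another lectin of type 2 dendritic cells, 6.67 against 97.7 CPM. Plet1, a surface protein, had 31.2 against 181 CPM and the integrin Itgae (CD103) 15.2 against 124 CPM. The class II peptide-loading gene H2-DMa had 170 against 566 CPM, and H2-Ab1, a class II chain, 4986 against 8671 CPM. All of these were lower in 9 of 9 libraries, and Il1b, a proinflammatory cytokine, was lower in 8 of 9 (1286 against 2307 CPM). The costimulatory gene Cd83 did not separate the sets, at 1008 against 913 CPM and higher in 5 of 9 libraries.

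**Figure D2:**
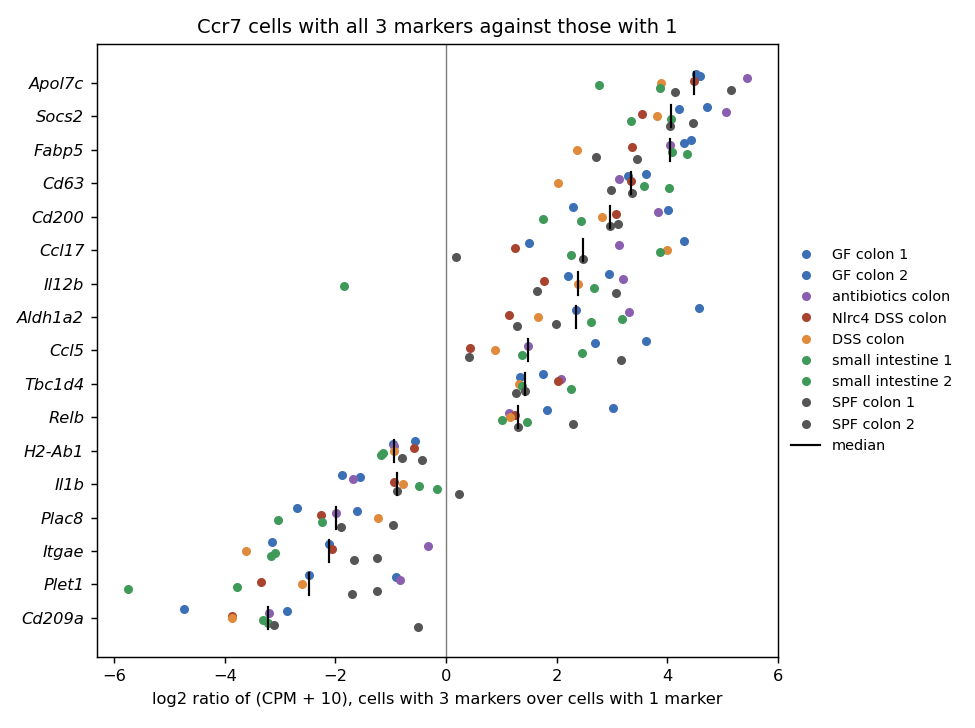
The log2 ratio of (CPM + 10) between Ccr7 cells with all 3 of Fscn1, Ccl22 and Il4i1 and those with 1, for 17 genes, with a point for each of 9 libraries and a line at the median. The median was 4.48 for Apol7c and -3.23 for Cd209a, and all 9 points of either gene lay on the same side of 0.

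Genes that mark the resting dendritic cell subsets were still detected in many Ccr7 cells. A UMI of Cd209a or Clec10a and none of Xcr1 or Clec9a was found in 756 cells (44.7%), the reverse in 135 (7.97%), both kinds in 117 (6.91%) and neither in 685 (40.5%). The Cd209a or Clec10a set was largest in small intestine 2 (65.5%) and SPF colon 2 (58.5%), and the cells with neither were 75.3% of Ccr7 cells with DSS.

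Against dendritic cells of the same libraries without Ccr7, few genes stood at least 2-fold apart everywhere. The references were 256 Xcr1/Clec9a cells and 312 Cd209a/Clec10a cells, 14 to 83 per library, with at least 20 UMIs of Cd74, no Ccr7 and at most 1 UMI of C1qa. Genes were counted with at least 20 UMIs over all Ccr7 cells, so genes nearly absent from these cells could not count as lower. Of 11148 genes, 21 (0.188%) were at least 2-fold higher in Ccr7 cells than in both classes in all 9 libraries, on the (CPM + 10) scale, and 0 (0%) were at least 2-fold lower. These were Rras2, Mmd, Basp1, Tcf7, Bcl2a1b, Spred1, Ktn1, H2-Eb2, Tspan3, Ankrd33b, Mmp14, Mreg, Ccl5, Tbc1d4, Cacnb3, Il12b, Fabp5, Cd63 and the complement genes C1qa, C1qb and C1qc. The references were limited to 1 UMI of C1qa and Ccr7 cells were not, which sets the result for the C1q genes. Ccr7 cells were also taken without a UMI of 7 genes of other lineages: Cd3d, Cd3g, Trac, Ms4a1, Cd79b, C1qa and S100a8. In those cells 19 genes passed and 17 of them were among the 21. With a stricter rule (at least 3 Ccr7 UMIs and at least 2 markers) 55 passed, 18 of them among the 21.

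The genes furthest above both classes, among those with at least 50 CPM in every library, were Cd63, Fabp5 and Tbc1d4. Cd63 ran at 82.5 to 461 CPM in Ccr7 cells (median 270 over libraries), against 3.07 to 17.6 CPM in Xcr1/Clec9a cells and 5.22 to 35.3 CPM in Cd209a/Clec10a cells, with no overlap. Fabp5 ran at 75.3 to 1068 CPM, against 1.93 to 58.6 and 0 to 65.8 CPM, again with no overlap. Tbc1d4, a GTPase-activating protein for Rab proteins, ran at 731 to 1684 CPM, against 52.1 to 269 and 63.8 to 193 CPM. Of these, Cd63 was higher in the C1q class than in Ccr7 cells (median 405 CPM), while Tbc1d4 was at 30.2 CPM there. Tspan3, another tetraspanin, ran at 91.1 to 415 CPM against at most 38.8 and 42.5 CPM, and Ktn1, a vesicle motor receptor, at 204 to 493 CPM against at most 73.0 and 84.9 CPM. Pik3r1, a regulatory subunit of phosphoinositide 3-kinase, ran at 609 to 994 CPM against at most 197 and 371 CPM. Il12b ran at 25.8 to 511 CPM and at most 19.9 and 5.80 CPM in the classes.

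Among the genes named next, ranges over libraries overlapped with a dendritic cell class for Apol7c, Ccl17, Ccl5, Il1rn and Apoe. Those of Procr and Bcl2a1a did not. Within libraries these genes were higher than both classes in 9 of 9, with 2 exceptions. Ccl17 was above Xcr1/Clec9a cells in 8 of 9 and Apoe above Cd209a/Clec10a cells in 8 of 9. Procr, the protein C receptor, had a median of 252 CPM in Ccr7 cells against 30.8 and 26.4 CPM in Xcr1/Clec9a and Cd209a/Clec10a cells. Apol7c had 353 CPM against 63.7 and 0 CPM, and Ccl17 199 CPM against 18.2 and 26.1 CPM. Ccl5 had 684 CPM against 9.12 and 17.4 CPM, with the lowest values of Ccr7 cells (59.8 and 81.8 CPM) in the small intestine libraries. Bcl2a1a, a survival gene with near-identical paralogs that share reads and is therefore uncertain, had 219 CPM against 54.1 and 38.4 CPM. Il1rn, the antagonist of the IL-1 receptor, had 519 CPM against 4.90 and 95.7 CPM, and Apoe, a lipid carrier of macrophages, 243 CPM against 23.2 and 81.8 CPM. The C1q class held 1183 CPM of Il1rn and 9241 CPM of Apoe. In Ccr7 cells with no UMI of other lineages the median was 444 CPM for Il1rn and 44.5 CPM for Apoe, and Apoe was then below the Cd209a/Clec10a class. That filter removes every cell with a C1qa UMI, so it is no independent check of macrophage genes.

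Cxcl1, a chemokine for neutrophils, had a median of 159 CPM in Ccr7 cells against 5.80 and 24.4 CPM in Xcr1/Clec9a and Cd209a/Clec10a cells and 1210 CPM in the C1q class. AW112010, annotated as a long noncoding RNA, had 194 CPM against 34.3 and 37.7 CPM, and 295 CPM in the C1q class. These genes are shown by their promoters (250 bases before to 50 after the start, from RefSeq on GRCm38.p6), because of the 15 genes furthest above both classes, 13 of which had a RefSeq promoter, they were the 2 that held the NF-kB motif GGANTTTCC on either strand. The Cxcl1 promoter lies at chr5:90890995-90891294 on the plus strand and the AW112010 promoter at chr19:11050517-11050816 on the minus strand. Capitals mark the motif, which starts 70 bases before the start site in both.
Cxcl1: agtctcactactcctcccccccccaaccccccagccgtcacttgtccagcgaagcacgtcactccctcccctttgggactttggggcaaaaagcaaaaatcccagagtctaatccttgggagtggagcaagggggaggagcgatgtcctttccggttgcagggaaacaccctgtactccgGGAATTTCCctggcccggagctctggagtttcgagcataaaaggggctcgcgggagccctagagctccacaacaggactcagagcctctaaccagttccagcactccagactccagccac
AW112010: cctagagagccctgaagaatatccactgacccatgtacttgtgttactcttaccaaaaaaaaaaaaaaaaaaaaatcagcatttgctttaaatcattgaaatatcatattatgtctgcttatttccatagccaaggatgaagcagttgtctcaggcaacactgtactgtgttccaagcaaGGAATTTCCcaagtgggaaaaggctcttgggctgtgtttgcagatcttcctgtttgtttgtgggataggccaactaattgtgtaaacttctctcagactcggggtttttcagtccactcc
By gene, the motif was found in 2 of these 13, and in 392 of 27025 genes with RefSeq promoters of this length (1.451%). By promoter, it was found in 2 of 19, and in 412 of 32851 (1.254%). Its presence is a description of these letters and not of binding.

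No gene that was counted was at least 2-fold below both classes in every library. The genes named next had the largest median falls among those with at least 50 CPM in both classes. Zfp36l2, which promotes messenger RNA decay, ran at 106 to 223 CPM in Ccr7 cells, against 363 to 764 CPM in Xcr1/Clec9a cells and 375 to 870 CPM in Cd209a/Clec10a cells, with no overlap. Mef2c, a transcription factor, had a median of 53.4 CPM against 142 and 151 CPM, and Itgb7, an integrin chain of gut homing, 122 CPM against 254 and 278 CPM. Hspa1a, a heat-shock protein, had 85.2 CPM against 332 and 412 CPM, and Hspa1b, its near-identical copy, 129 CPM against 295 and 484 CPM, so their split is uncertain. The other members were Sgms1 (sphingomyelin synthesis), Olfm1, Kcnn4 (a calcium-gated potassium channel), St3gal5 (ganglioside synthesis) and Casp6 (a caspase), with medians of 13.7 to 48.0 CPM in Ccr7 cells, 63.9 to 148 CPM in Xcr1/Clec9a cells and 52.0 to 175 CPM in Cd209a/Clec10a cells.

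**Figure D3:**
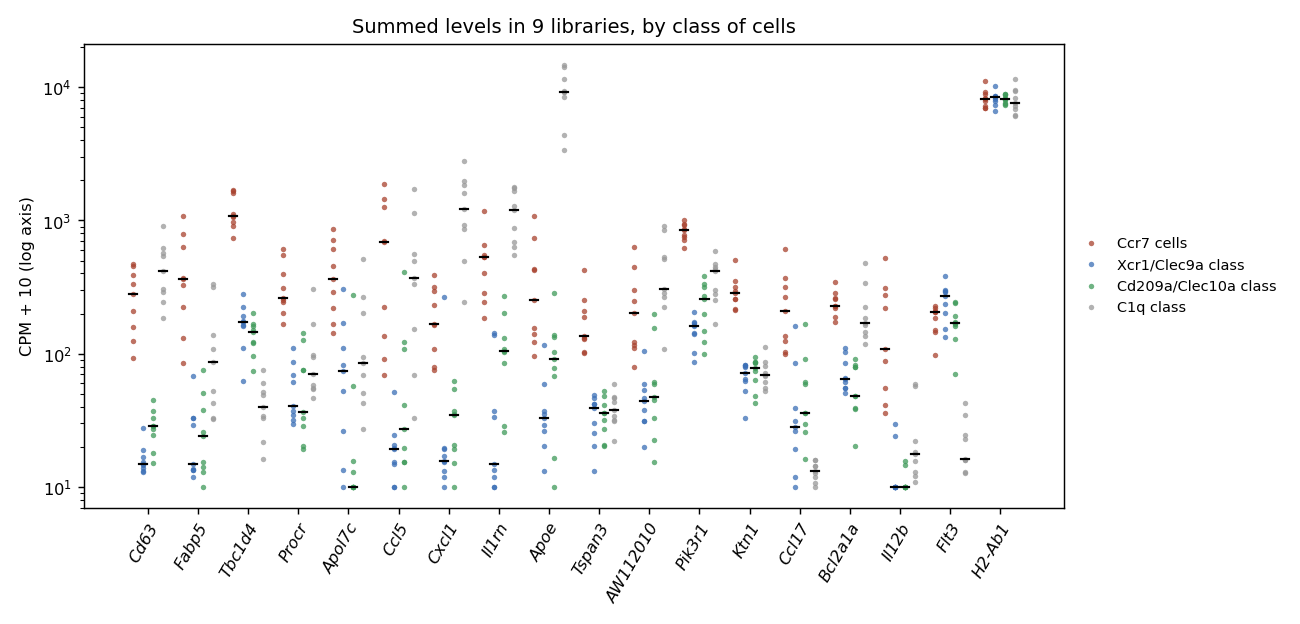
CPM + 10 (log axis) of 18 genes in Ccr7 cells, Xcr1/Clec9a cells, Cd209a/Clec10a cells and C1q macrophages, with a point for each of 9 libraries and a line at the median. Cd63 had a median of 270 CPM in Ccr7 cells against 4.90 and 18.9 CPM in the other dendritic cells, while H2-Ab1 overlapped in all classes.

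The gene lists set these genes beside functions, each with its median log2 ratio against Xcr1/Clec9a cells and then against Cd209a/Clec10a cells, where all genes had -0.02 and 0.00. The class II presentation genes had medians of 0.22 and -0.02, with 0 of 11 past 2-fold against both in every library. H2-Ab1, which pairs with H2-Aa to form a class II molecule, ran at 6933 to 11043 CPM in Ccr7 cells, 6573 to 10119 CPM in Xcr1/Clec9a cells and 7303 to 8875 CPM in Cd209a/Clec10a cells. H2-Aa ran at 8144 to 11344 CPM, H2-Eb1 at 6029 to 8704 CPM and the cathepsin Ctss at 573 to 1393 CPM. Costimulation genes had medians of 1.29 and 0.50 with 0 of 11 past 2-fold. Among them Cd40 had a median of 288 CPM in Ccr7 cells against 46.0 and 102 CPM in Xcr1/Clec9a and Cd209a/Clec10a cells, Cd80 162 CPM against 44.6 and 63.6 CPM, and Cd83 921 CPM against 687 and 641 CPM. Cd86 had 291 CPM against 153 and 206 CPM.

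The 15 NF-kB pathway genes had medians of 1.27 and 0.35 and 0 past 2-fold. Nfkbia, the inhibitor that NF-kB itself induces, ran at 1038 to 2306 CPM in Ccr7 cells and Rel at 1288 to 1857 CPM. Relb had a median of 185 CPM in Ccr7 cells against 34.3 and 60.9 CPM in Xcr1/Clec9a and Cd209a/Clec10a cells. Among transcription factors (medians 0.71 and 0.47, 0 of 14) the highest were Nr4a3 at 1071 to 2633 CPM, Etv3 at 1139 to 1986 CPM and Bhlhe40 at 1185 to 1914 CPM. Genes that restrain T cells had medians of 0.96 and 0.31 with 0 of 11 past 2-fold, led by Cd274 (PD-L1) at 386 to 796 CPM and Tgfb1 at 199 to 378 CPM. Genes of type 1 dendritic cells had medians of -2.22 and 0.23 with 0 of 13 past 2-fold, and those of type 2 dendritic cells 2.40 and -0.06 with 0 of 12. The Xcr1/Clec9a and Cd209a/Clec10a cells were chosen on genes of these lists. Irf8, a transcription factor of type 1 dendritic cells, was at a median of 187 CPM in Ccr7 cells against 1079 CPM in Xcr1/Clec9a cells. Receptors of uptake and sensing had medians of 0.96 and -0.38 and the dissociation and stress genes -0.38 and -0.80, with 0 of 14 and 0 of 16 past 2-fold. Cytokines had medians of 1.84 and 0.87 with 1 of 12 past 2-fold (Il12b), chemokines 1.71 and 1.14 with 1 of 8 (Ccl5), and the interferon response 0.79 and 0.43 with 0 of 19. The remaining lists, of survival, cytoskeleton, class I, glycolysis, cholesterol handling, retinoid handling and the cell cycle, had medians of -0.13 to 0.61 and of -0.18 to 0.45.

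Germ-free and SPF colon differed by 2 genes within Ccr7 cells. UMIs were summed over the Ccr7 cells of each library and tested with edgeR's quasi-likelihood test, in a single fit of the 6 libraries of GF colon, small intestine and SPF colon, with Benjamini-Hochberg adjustment over 8844 genes. In summed counts, fewer cells with a gene and less RNA per cell cannot be told apart, and p-values measure only the spread between these pooled libraries. The threshold of 0.05 was passed by 1 gene higher in GF (0.0113%) and 1 lower (0.0113%), with 533 genes at an unadjusted p under 0.05 and 11 calls by DESeq2.

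Ccl5 (chr11:83525778-83530518, minus strand, GRCm38) measured 1879 and 1448 CPM in GF colon, against 126 and 214 CPM in SPF colon. Both GF libraries were above both SPF libraries, and the log2 fold change was 3.37 (SE 0.31, edgeR adjusted p = 0.00176). A Ccl5 UMI was held by 70.8% and 59.6% of Ccr7 cells in GF colon, against 22.2% and 25.3% in SPF colon, and at 3000 UMIs per cell by 53.2% and 43.8%, against 14.3% and 12.3%. In Xcr1/Clec9a cells that share was 0% and 18.8% in GF colon, against 12.5% and 9.38% in SPF colon. Median depth was 11595 and 14293.5 UMIs per Ccr7 cell in GF colon, against 10280 and 15361 in SPF colon, and 17243 and 18188 per Xcr1/Clec9a cell in GF colon, against 12600 and 20568.5 in SPF colon. The GF libraries held more 3-marker cells, so Ccl5 was also set out by marker count. It was 3765 and 3502 CPM against 186 and 1214 CPM in cells with 3 markers, 1154 and 1313 against 74.7 and 146 CPM with 2, and 297 and 534 against 137 and 126 CPM with 1, so the groups did not overlap in any of these sets. T cell markers summed to 5.19 and 10.7 CPM in GF colon, against 3.74 and 16.8 CPM in SPF colon. In Ccr7 cells with no UMI of other lineages Ccl5 was 1434 and 1436 CPM, against 147 and 240 CPM. The call held in 16 of 19 alternatives and was lost with the stricter rule (log2 fold change 3.45, adjusted p = 0.101), in 1-marker cells (1.78, adjusted p = 0.0832) and in cells with at least 2 markers (3.45, adjusted p = 0.126).

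Ifitm1 (chr7:140967221-140969825, plus strand), a membrane protein of the interferon-induced family, measured 112 and 104 CPM in GF colon, against 419 and 714 CPM in SPF colon. The groups did not overlap, and the log2 fold change was -2.30 (SE 0.30, edgeR adjusted p = 0.0359). By marker count it was 0 and 36.4 CPM against 382 and 528 CPM with 3 markers, 74.1 and 92.3 against 273 and 610 CPM with 2, and 323 and 145 against 499 and 798 CPM with 1. The call held in 12 of 19 alternatives. It was lost without GF colon 1 (adjusted p = 0.149), without GF colon 2 (0.158) and without SPF colon 2 (0.0739), and under both other rules and both marker sets.

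The chemokines Ccl3, Ccl4 and Ccl17 were higher in both GF libraries than in both SPF libraries without passing the test, as was Il12b. The share of all genes that separated in this way is not given here, so no result about chemokines follows. Of 8 chemokines 1 rose (Ccl5) and 7 were fitted above 0, with a median log2 fold change of 0.86 against -0.02 over all genes. In Ccr7 cells with no UMI of other lineages 4 of 8 were fitted above 0, with a median of 0.58. Ccl17 measured 599 and 362 CPM in GF colon, against 125 and 93.3 CPM in SPF colon (2.26, SE 0.39, edgeR adjusted p = 0.189). Il12b measured 511 and 209 CPM, against 44.9 and 99.3 CPM (2.33, SE 0.44, adjusted p = 0.189), and Tbc1d4 1684 and 1650 CPM, against 896 and 1061 CPM (0.87, adjusted p = 0.238). Neither gene overlapped between the groups. Aldh1a2 was 154 and 15.5 CPM, against 11.2 and 8.10 CPM (3.11, adjusted p = 0.454), and most of its difference was in GF colon 1. Ccl17, Il12b and Aldh1a2 had higher medians in 3-marker than in 1-marker cells. Cells with 3 markers were 35.4% and 20.9% of Ccr7 cells in GF colon, against 13.9% and 7.37% in SPF colon. The part of this mix in these differences was not tested. The 12 genes that checked the label had a median of 0.57, and of -0.04 in 1-marker cells and 0.45 with 2 or 3 markers. The 19 interferon response genes had a median of 0.15 with 0 called, and the 11 class II genes -0.31 with 0 called. Macrophage markers summed to 1258 and 400 CPM in GF colon, against 840 and 183 CPM in SPF colon.

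**Figure D4:**
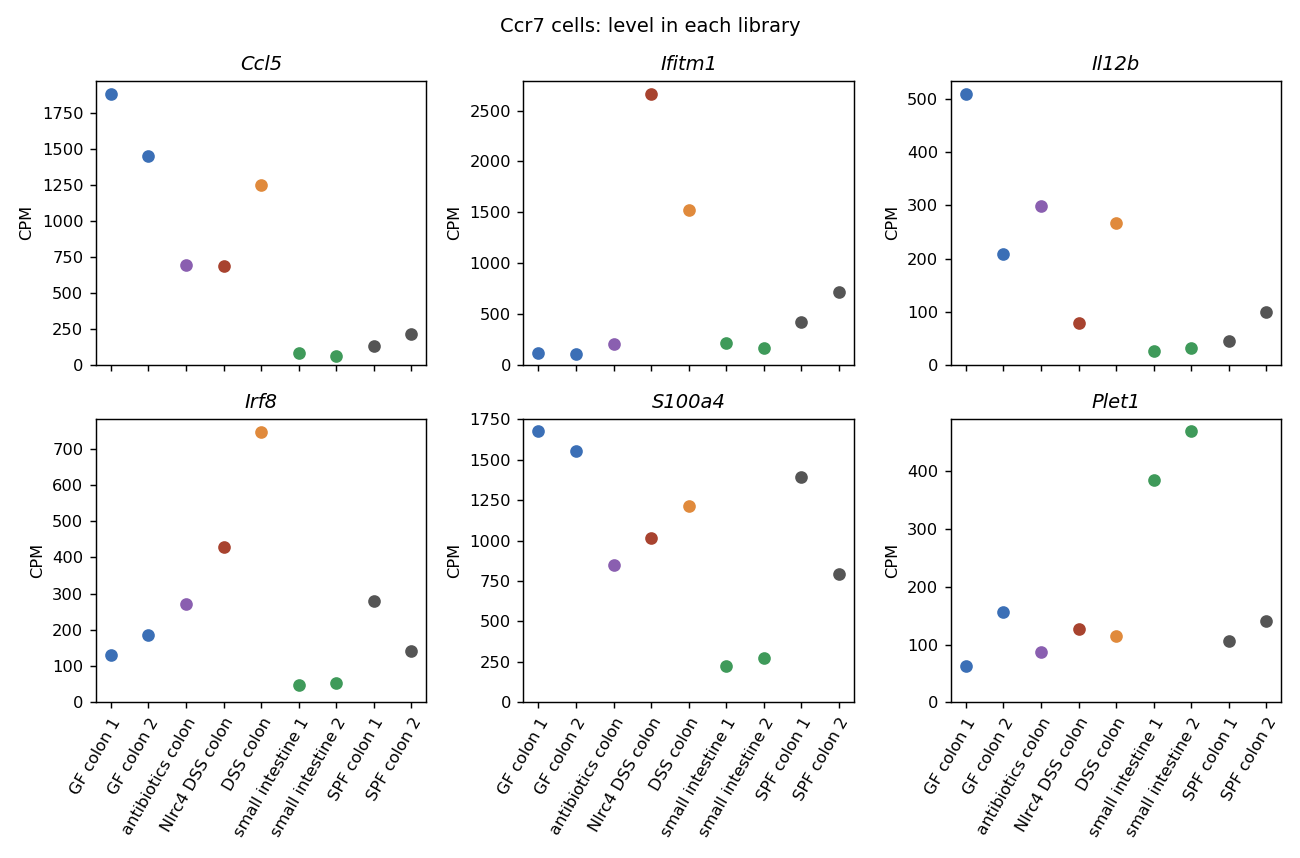
CPM of 6 genes in the summed Ccr7 cells of each of 9 libraries, a point for each library. Ccl5 stood at 1879 and 1448 CPM in GF colon, S100a4 at 222 and 274 CPM and Plet1 at 385 and 470 CPM in small intestine, against 126 and 214, 1394 and 796, and 106 and 141 CPM in SPF colon.

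Ccr7 cells of the small intestine differed from those of SPF colon in 69 genes. In the same edgeR fit 21 of 8844 genes (0.237%) were higher and 48 (0.543%) lower at an adjusted p of 0.05, with 966 at an unadjusted p under 0.05. The count depended on which libraries and which cells were used. When a library of either group was left out, that group had 1 library and the number of calls changed. Without small intestine 2 or either SPF colon library, some of the calls were genes outside the 69. In cells with at least 2 markers 0 genes were called (521 at an unadjusted p under 0.05), and in 1-marker cells 113 were, 60 of them among the 69.

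Genes of the S100 family of calcium-binding proteins were lower in the small intestine. S100a4 (chr3:90603771-90606045, plus strand) measured 222 and 274 CPM in the small intestine, against 1394 and 796 CPM in SPF colon (log2 fold change -2.01, SE 0.26, adjusted p = 0.0308). S100a6 measured 486 and 468 CPM, against 1750 and 1040 CPM (-1.42, adjusted p = 0.0316), and S100a10 53.4 and 64.0 CPM, against 178 and 221 CPM (-1.65). No group overlapped. S100a4 was also lower in each set by marker count, at 144 and 315 against 783 and 871 CPM with 3 markers, 248 and 290 against 1965 and 894 CPM with 2, and 239 and 267 against 1256 and 729 CPM with 1. In Cd209a/Clec10a cells it was 159 and 99.2 CPM in small intestine, against 1528 and 1409 CPM in SPF colon, a difference of the same direction.

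The other 9 named genes that fell did so by a log2 fold change of 1.56 or more in size. Ly6a, a surface antigen, measured 13.8 and 9.70 CPM in the small intestine, against 308 and 65.1 CPM in SPF colon, and Klrb1b, a lectin-like receptor, 3.44 and 9.38 CPM, against 44.9 and 134 CPM. Ifi205, of the interferon-induced p200 family, measured 21.5 and 32.0 CPM, against 303 and 130 CPM. Their log2 fold changes were -3.87, -3.57 and -2.82. Slfn2, a schlafen gene, measured 158 and 231 CPM, against 703 and 548 CPM, Tgfbi, an extracellular matrix protein, 47.4 and 88.9 CPM, against 356 and 235 CPM, and Lmna, the gene of lamin A, 22.4 and 35.9 CPM, against 106 and 204 CPM. Emp3, Sema4a and Ms4a4c also fell, with log2 fold changes of -2.28, -2.13 and -2.41. In each of these the small intestine libraries lay below both SPF colon libraries.

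Of the genes that rose, Plet1 (chr9:50494525-50505482, plus strand) measured 385 and 470 CPM in the small intestine, against 106 and 141 CPM in SPF colon (log2 fold change 1.89, SE 0.35, edgeR adjusted p = 0.0401). It was 509 and 529 against 124 and 181 CPM in 1-marker cells, and 27.8 and 0 against 46.6 and 48.4 CPM in 3-marker cells, so in 3-marker cells, which were few, the small intestine was the lower group. Serpinb6b, a serine protease inhibitor, measured 536 and 250 CPM, against 112 and 94.8 CPM, and Ccr1, a chemokine receptor, 361 and 548 CPM, against 168 and 201 CPM. Ffar2, a receptor for short-chain fatty acids, measured 99.9 and 90.9 CPM, against 37.4 and 23.1 CPM. Sult1a1, a sulfotransferase, measured 49.9 and 129 CPM, against 12.5 and 11.7 CPM, and Cpm, a membrane carboxypeptidase, 88.7 and 83.4 CPM, against 27.5 and 22.2 CPM. Epcam, an adhesion molecule of epithelium, measured 81.8 and 89.9 CPM, against 33.7 and 28.8 CPM, while the 4 epithelial markers summed to 4.30 and 19.1 CPM, against 33.7 and 3.0 CPM. Xlr, Ap1s2, a clathrin adaptor subunit, Sec24d, of secretory vesicle coats, Ppp1r14a, Zfhx3 and 2510009E07Rik rose as well. Itgae was 176 and 186 CPM, against 79.9 and 120 CPM, and was not called (0.94, adjusted p = 0.332), nor was Aldh1a2 at 59.4 and 41.4 CPM, against 11.2 and 8.10 CPM (2.55, adjusted p = 0.248).

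The interferon response list was lower in the small intestine. Of 19 genes 4 fell (Cxcl10, Oasl1, Ifit1 and Irf7), 0 rose and 0 were fitted above 0, with a median log2 fold change of -1.59 where all genes had 0.00. Cxcl10, a chemokine induced by interferon, measured 76.6 and 49.5 CPM in the small intestine, against 322 and 180 CPM in SPF colon (-1.88, edgeR adjusted p = 0.0316). Irf7, a transcription factor of the interferon response, measured 2.58 and 10.7 CPM, against 115 and 41.1 CPM (-3.11, adjusted p = 0.047). Isg15, a ubiquitin-like modifier, measured 80.9 and 42.0 CPM, against 280 and 123 CPM, and was not called (-1.59, adjusted p = 0.107). SPF colon 1 was the higher SPF library for these genes, and without it the median was -0.96 with 5 genes fitted above 0 and 3 of 19 called. Without SPF colon 2 the median was -2.23 with 7 of 19 called, and without small intestine 1 or small intestine 2 it was -1.72 or -1.57 with 0 of 19 called. In cells with at least 2 markers the median was -0.42, with 0 of 15 called, and in 1-marker cells -1.96 with 8 of 19 called. Irf8 measured 49.1 and 54.6 CPM, against 281 and 143 CPM (-1.88, adjusted p = 0.032), and Fabp5 122 and 75.3 CPM, against 361 and 318 CPM (-1.68, adjusted p = 0.0415). The type 1 dendritic cell list had 2 calls (Irf8 and Ifi205), and each remaining list at most 1.

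With DSS, interferon-induced genes and chemokines were higher in Ccr7 cells, in 1 library with no replicate check. A gene was counted where (CPM + 10) was at least 2-fold apart from each SPF colon library in the same direction. Of 8719 genes with at least 20 UMIs, 162 (1.86%) were higher with DSS and 51 (0.585%) lower. Of 19 interferon response genes, 11 were higher and 0 lower, with a median log2 ratio of 1.61 where all genes had 0.02. Isg15 measured 992 CPM with DSS (Poisson 95% interval 932 to 1055), against 280 and 123 CPM in SPF colon, and Cxcl9, a chemokine induced by interferon gamma, 1512 CPM, against 798 and 178 CPM, which is below 2-fold over SPF colon 1. Ifit1, an RNA-binding antiviral protein, measured 142 CPM (120 to 167), against 31.2 and 25.2 CPM. The list had 11 of 19 higher without cells holding a UMI of other lineages (median 1.59), 7 of 19 in 1-marker cells (1.28) and 12 of 17 in cells with at least 2 markers (2.05). Isg15 was 1184 against 214 and 307 CPM in 3-marker cells, 985 against 268 and 132 CPM with 2, and 836 against 300 and 93.9 CPM with 1.

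**Figure D5:**
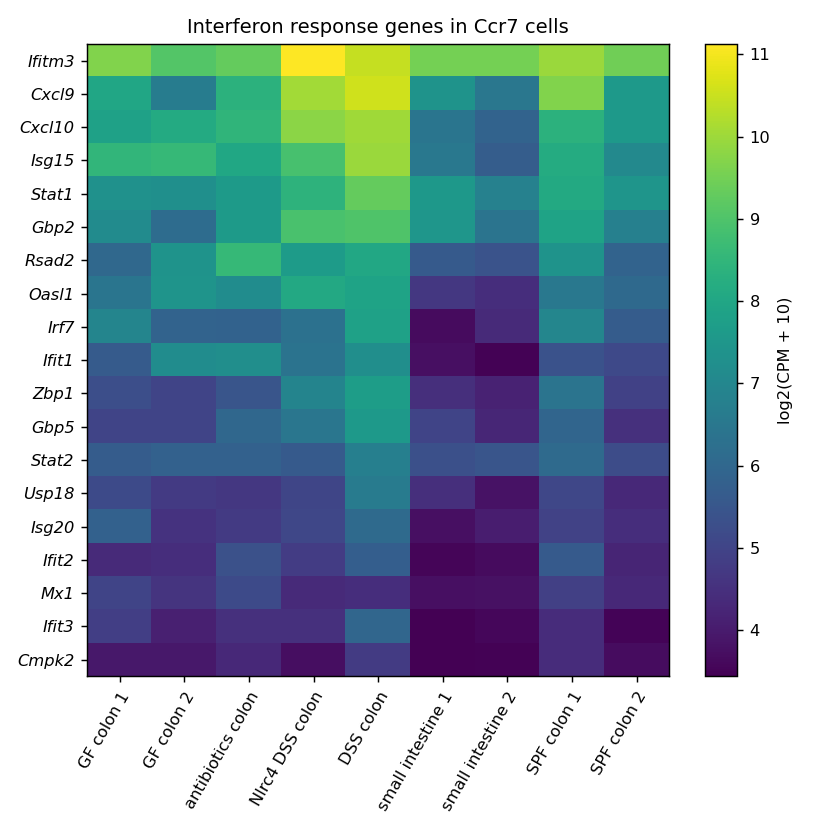
The log2 of (CPM + 10) of 19 interferon response genes (rows) in the summed Ccr7 cells of 9 libraries (columns), as colour. The DSS column was high, with Isg15 at 992 CPM, and the small intestine columns low, at 80.9 and 42.0 CPM, against 280 and 123 CPM in SPF colon.

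Other genes that were higher with DSS included a chemokine and neutrophil genes. Ccl5 measured 1247 CPM (1180 to 1317), against 126 and 214 CPM in SPF colon, and Irf8 747 CPM, against 281 and 143 CPM. AA467197 measured 884 CPM, against 203 and 95.4 CPM, and Saa3, an acute-phase protein, 207 CPM, against 13.7 and 7.20 CPM. Of 8 chemokines 3 were higher (median 1.11). The neutrophil genes S100a9 and S100a8 measured 1215 and 951 CPM with DSS, against 0 and 1.80 CPM and 2.50 and 0.900 CPM in SPF colon. All 4 neutrophil markers were higher, at a sum of 2570 CPM against 37.4 and 23.1 CPM. That sum reached 1303 CPM in the Xcr1/Clec9a, 3304 CPM in the Cd209a/Clec10a and 3572 CPM in the C1q class. In Ccr7 cells with no UMI of other lineages S100a9 was 26.3 CPM with DSS, against 0 and 1.52 CPM, and 1 of 3 neutrophil markers was higher. That filter removes every cell with an S100a8 UMI, so it is no independent check of neutrophil genes. Retnlg (337 CPM, against 21.2 and 7.5 CPM), Hp (127 CPM, against 29.95 and 3.90 CPM) and Glipr2 (244 CPM, against 54.9 and 45.9 CPM) completed the named genes.

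Of 12 type 2 dendritic cell genes 3 were lower with DSS and 0 higher, with a median log2 ratio of -0.02, which is close to that of all genes (0.02). Cd209a measured 74.9 CPM (59.1 to 93.6), against 297 and 516 CPM in SPF colon, Mgl2, another lectin of these cells, 29.2 CPM, against 167 and 266 CPM, and Clec10a 30.1 CPM, against 97.3 and 131 CPM. Cd209a and Clec10a were also lower in 3-marker than in 1-marker cells. Cells with 3 markers were 29.2% of Ccr7 cells with DSS, against 13.9% and 7.37% in SPF colon. Those with 1 marker were 38.2%, against 58.3% and 61.3%. The part of this mix in the lower levels was not tested. Hmox1, a heme-degrading enzyme, measured 29.2 CPM, against 119 and 185 CPM, and Cd44, an adhesion receptor, 252 CPM, against 560 and 775 CPM. Emp1, Wnt11, Srxn1, Lmna and Mmp19 were lower as well, at 25.3 to 54.5 CPM with DSS. The class I presentation genes had a median log2 ratio of 0.92 with 0 of 12 past 2-fold, B2m, the class I light chain, being 5099 CPM with DSS, against 3666 and 2895 CPM. The class II genes had a median of -0.43 with 0 of 11 past 2-fold.

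The library labelled Nlrc4 deficient with DSS was compared with DSS alone, with 1 library on each side. Of 9138 genes 109 (1.19%) were at least 2-fold higher and 262 (2.87%) lower. Cells with 1 marker were 70.4% of Ccr7 cells in the library labelled Nlrc4 deficient, against 38.2% with DSS. Those with 3 markers were 8.46% against 29.2%. No split by marker count is given for this comparison, and the part of this mix in it was not tested. Hmox1 measured 547 CPM (529 to 565) in the library labelled Nlrc4 deficient, against 29.2 CPM (19.7 to 41.7) with DSS. Srxn1 and Prdx1, which act on oxidized peroxiredoxins and peroxides, measured 162 and 1108 CPM, against 25.3 and 324 CPM. Il1a, an interleukin, measured 121 CPM (113 to 129), against 6.81 CPM (2.74 to 14.0), and Cxcl1 379 CPM, against 66.1 CPM. Edn1, an endothelin, was 161 CPM against 17.5 CPM, Satb1, a chromatin organizer, 110 CPM against 14.6 CPM, and the noncoding Neat1 1571 CPM against 413 CPM. Gm42031 (344 CPM against 3.89 CPM) and Mir155hg, the host of microRNA 155, (236 CPM against 54.5 CPM) were also higher.

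S100a9, S100a8 and Retnlg measured 40.3, 33.8 and 1.52 CPM in the library labelled Nlrc4 deficient, against 1215, 951 and 337 CPM with DSS. Of 4 neutrophil markers 4 were lower (median log2 ratio -4.53), but in Ccr7 cells with no UMI of other lineages 0 of 2 were (-0.76), with S100a9 at 9.90 CPM against 26.3 CPM. Cells with an S100a8 UMI are removed by that filter, so it is no independent check here either. Of 19 interferon response genes 0 were higher and 8 lower, with a median log2 ratio of -0.90 where all genes had -0.09. Isg15 measured 461 CPM (445 to 478), against 992 CPM (932 to 1055). The receptor kinase Axl was 22.1 CPM against 121 CPM, the complement gene Cfb 21.1 CPM against 114 CPM and Slfn5 71.2 CPM against 306 CPM. Gm47283, annotated on the Y chromosome, was 0.15 CPM against 124 CPM, and Igha, Fnbp1l and Kdr were lower too. Ifitm1 was 2664 CPM in this library, against 1520 CPM with DSS, both above the 104 to 714 CPM of the other libraries.

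With antibiotics, chemokine genes were higher than in either SPF colon library. Of 8798 genes 28 (0.318%) were at least 2-fold higher and 5 (0.0568%) lower in this single library. Of 8 chemokines 4 were higher, with a median log2 ratio of 0.96 where all genes had -0.02. Ccl4, an inflammatory chemokine, measured 921 CPM (873 to 971) with antibiotics, against 180 and 150 CPM in SPF colon, Ccl3, its close relative, 250 CPM, against 92.4 and 81.3 CPM, and Ccl5 692 CPM (651 to 736), against 126 and 214 CPM. Ccl17 was 309 CPM, against 125 and 93.3 CPM. Il12b was 299 CPM (272 to 328), against 44.9 and 99.3 CPM. Without cells holding a UMI of other lineages 2 of 8 chemokines were higher, with a median of 0.08. Ifit1 (141 CPM, against 31.2 and 25.2 CPM) and Rsad2, an antiviral enzyme (377 CPM, against 159 and 48.6 CPM), were the 2 of 19 interferon response genes past the fold. Edn1, Serpinb6b and the antibody light chain Iglc1, a plasma cell product (232 CPM, against 34.9 and 26.4 CPM), were higher as well. Ifitm1 was 199 CPM (177 to 223), against 419 and 714 CPM, and Ifitm6 58.7 CPM, against 134 and 129 CPM, and they were the 2 lower genes above the level set for naming.

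The secreted products of the members varied over the 9 libraries. Cxcl2, a neutrophil chemokine, was at 1087 and 2331 CPM in GF colon, 1663 CPM with antibiotics, 3725 CPM in the library labelled Nlrc4 deficient, 1283 CPM with DSS, 1421 and 1507 CPM in small intestine and 1707 and 1329 CPM in SPF colon. Il1b ran between 922 CPM in GF colon 1 and 3486 CPM in the library labelled Nlrc4 deficient, while Ccl5 ran between 59.8 CPM in small intestine 2 and 1879 CPM in GF colon 1. Il12b was 511 and 209 CPM in GF colon, 299 CPM with antibiotics and 267 CPM with DSS, against 25.8 and 31.4 CPM in small intestine and 44.9 and 99.3 CPM in SPF colon. By contrast Cxcl16, a membrane-bound chemokine, stayed between 519 and 1147 CPM, and the actin-regulating gene Arpc2 between 898 and 1006 CPM. Il6, Il10, Tnf and Ebi3, other cytokine genes of these cells, had medians of 95.6, 69.2, 131 and 131 CPM and ranged over 25.96 to 185, 24.1 to 160, 15.5 to 276 and 72.0 to 227 CPM.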

How the data were processed

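Cells were CD45+CD11b+ and sorted, pooled over mice, and sequenced as droplet 3′ libraries. Per the labels and file headers, the authors used Cell Ranger (3.0.2 in the matrix header), with STAR 2.5.1b and mm10 named in the submitters' processing notes, and the UMI counts per gene and cell were deposited by the authors as raw counts. Cells with over 15% mitochondrial UMIs or under 200 genes were removed, as in the study's methods. Members, gene lists and named-gene rules were chosen with earlier results of these data known.

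UMIs of the Ccr7 cells were summed per library (577846 to 6598669 UMIs) and tested with edgeR 4.0.16 (R 4.3.3; TMM, filterByExpr, quasi-likelihood, 6 libraries, Benjamini-Hochberg, threshold 0.05) in place of the cell-level Poisson model of the study. CPM is scaled to the summed UMIs of a library's Ccr7 cells, and ratios used a pseudocount of 10 CPM. In single-library comparisons a gene counted at a log2 ratio of at least 1 in size, with at least 20 UMIs. Intervals are exact Poisson or binomial at 95% and cover counting error only. The test was checked on simulated counts.

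Genes named were, by test, up to 12 in each direction with the smallest adjusted p and at least 50 CPM; against dendritic cells, the 15 highest and 10 lowest at that level; in single-library comparisons, up to 10 in each direction at 100 CPM; up to 6 members of each of 31 lists; and any called member. Genes of the rule and mitochondrial genes stayed in the fit and out of the counts. Alternatives were DESeq2 1.42.0, no filter on low counts, other cell and gate settings, thinning, pseudocount 1, the replicate block and leaving out libraries. Other software was Python 3.11.15 with scanpy 1.11.5, numpy 2.4.6, scipy 1.17.1, pandas 2.3.3 and matplotlib 3.10.9. Gene coordinates are GENCODE GRCm38 and promoters RefSeq GRCm38.p6.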

Additional observations from a re-analysis of the deposited data

How the results depend on the processing

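Alternatives that removed the highest doublet scores or cells with Xist UMIs, or that split cells by marker count, were chosen after seeing the data. Genes named among the calls kept their direction under every alternative that could be fitted, with calls lost in 167 of 643 comparisons of gene and alternative. In GF colon against SPF colon the 2 calls became 11 with DESeq2, 6 with only the 2 groups compared, 105 with no filter on low counts, 5 without UMIs of other lineages, 1 under the looser rule and 0 under the stricter rule (360 at an unadjusted p under 0.05 by edgeR), in 1-marker cells (307) and in cells with 2 or 3 markers (366), and ran between 2 and 6 when each library was left out. In small intestine against SPF colon the 69 calls became 372 with no filter, 108 without UMIs of other lineages, 104 without the highest doublet scores, 113 in 1-marker cells, 40 under the looser rule and 0 under the stricter rule (546) and in cells with 2 or 3 markers (521), and ran between 3 and 130 when each library was left out. Cells and genes tested fell with the stricter rule, to 5621 genes of 8844.

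The counts without a test moved with the pseudocount, the rule and the SPF colon library used. With 1 CPM, 41 genes in place of 21 were higher than both dendritic cell classes, and 685, 1389 and 238 in place of 213, 371 and 33 were past 2-fold with DSS, in the library labelled Nlrc4 deficient and with antibiotics. The stricter rule gave 55 genes against the dendritic cell classes and 63 with antibiotics, where cells with 2 or 3 markers gave 64. Leaving out either SPF colon library gave 317 to 589 genes with DSS and 91 to 232 with antibiotics. The mean share of Ccr7 cells (5.25%) fell as low as 2.23%, with the stricter rule. Every alternative lay within 1 SD between replicates, but that SD was 3.95 percentage points, so this is a wide limit and shows no stability.

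The main test did not pair libraries by replicate number, and whether those numbers mark a shared batch cannot be told from these values. Deviations from group means correlated at 0.22 between SPF and GF colon, and at 0.02 and 0.03 between these and small intestine. With the replicate block 32 genes were called in GF colon and 188 in small intestine, in place of 2 and 69. Depth limits the smallest library (48 Ccr7 cells in GF colon 1), and no difference in the single-library conditions has a replicate check.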
